A study of Homo sapiens with 6 samples.

Results

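The 28 genes examined here encode the enzymes, regulators and a carrier protein of cholesterol and fatty acid synthesis. They were taken from a named list, as every row of the deposited expression table whose gene name holds a listed symbol, and all 28 were found among 27918 genes and loci. Between control cells and cells treated with an antisense oligonucleotide against CASC9, a long noncoding RNA, 1 of the 28 (3.57%) passed an adjusted p of 0.05 in limma, beside 6.99% of all genes tested. That gene was LSS, which encodes lanosterol synthase and was listed at 0.486 times its control level. With 1 library left out at a time, its adjusted p ran from 0.0324 to 0.117 in limma, under 0.05 in 1 such fit. None of the 28 was higher past that threshold. The control and treated libraries did not overlap for 10 of the 28 genes (35.7%), close to the 34.2% of all genes tested. Apart from LSS these did not pass. Among them SREBF1, SREBF2 and SCAP of the sterol-sensing switch, ACACA and ACLY of fatty acid synthesis, and ACAT2, FDFT1 and HSD17B7 had lower values in treated libraries, and SC5D higher ones. INSIG1, INSIG2, FASN and SCD, of the same groups, overlapped.

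Cells make cholesterol from acetyl-CoA through mevalonate, farnesyl diphosphate and squalene, and make fatty acids from the same acetyl-CoA through malonyl-CoA. Both pathways are switched on by the sterol regulatory element binding proteins (SREBPs), which are held in the endoplasmic reticulum with SCAP and an INSIG protein while sterols are plentiful and are released to the nucleus when sterols run low. Colorectal carcinoma cells in culture usually express these pathways, since dividing cells need membrane lipid.

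RNA-seq was done in HCT-116, an established human colorectal carcinoma cell line. The 3 libraries labelled GapNC came from cells given a control GapmeR and the 3 labelled GapC9 from cells given a GapmeR against CASC9, both at 10 nM and delivered by lipofection. GapmeRs are chimeric antisense strands, locked at the ends and with DNA in the middle, through which RNase H cuts the RNA they pair with. The time of harvest is 48 h in the methods of the study and 24 h in its results text, and whether the replicates were separate cultures was not stated, so that p-values measure only the spread between these libraries.

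Expression was given as FPKM, fragments divided by the length of the transcript and by the mapped total of the library, a scale on which the levels of different genes can be set side by side. If the smallest step between low values is 1 fragment, the libraries held 22.9 to 24.2 M (mega) fragments. Their summed FPKM values were close, but the libraries differed in their trend with GC content, most of all GapNC replicate 1. In GapNC replicate 1 the log2 deviation of a gene from its mean over the 6 libraries rose with the GC content of its transcripts (Spearman rho 0.616 across 10117 genes), against -0.376 to 0.0287 in the other 5 libraries. The trend ran the other way in GapC9 replicates 2 and 3 (-0.336 and -0.376), so it lay partly along the group comparison. For CASC9 the GapNC libraries held 0, 0.0108 and 0 FPKM and the GapC9 libraries 0.0528, 0.107 and 0 FPKM (exact permutation test, two-sided, p = 0.4, where 0.1 is the smallest possible). The target was therefore near 0 in all libraries and not lower in those labelled GapC9. With controls near 0, these values cannot show whether the GapmeR lowered it, and every direction below rests on the labels. Of 8 colon epithelial markers 7 averaged 0.1 FPKM or more, with VIL1 near 0, and their summed level was 1032 to 1433 FPKM in GapNC and 1023 to 1286 FPKM in GapC9. One of the 7, CLDN7, shared a row with 4 other genes, GABARAP included, so its own level is uncertain. Among 12 markers of leukocytes, fibroblasts, endothelium and hepatocytes, 10 had a row, and COL1A1 and SERPINA1 were the ones that averaged 0.1 FPKM or more.

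The upstream sequence of these genes is shown because SREBPs and their partner NF-Y act there. RefSeq promoter sequences of the GRCh38.p14 build matched 24 of the 28 genes, and ACAT2, FASN, FDFT1 and SQLE were the others. In the 250 bases before each start, both strands were searched for 4 motifs. The box bound by NF-Y, CCAAT, was present in 19 of 24 genes (79.2%) and in 41.6% of the 8225 genes that averaged 1 FPKM or more and had a promoter sequence. A sterol regulatory element with a free letter, TCACNCCAC, was found in SREBF2 alone of the 24, and in 1.19% of the 8225. The E-box CACGTG was found in INSIG1, SC5D and SCAP, which is 12.5% against 11.8%, and the Sp1 box GGGCGG in 95.8% against 76.8%. No motif contains another, and a match is a description of the letters only. The 5 windows that follow are of 160 bases, each outside the exons annotated for its gene and written on the strand of the gene, with capitals marking matches to the sterol regulatory element, the E-box or the NF-Y box on either strand. LSS is shown as the gene that passed the test, SREBF2 for its sterol element, MVK and MSMO1 for several NF-Y boxes, and SREBF1 as a window with none.
LSS, chr21:46228825-46228984, minus strand: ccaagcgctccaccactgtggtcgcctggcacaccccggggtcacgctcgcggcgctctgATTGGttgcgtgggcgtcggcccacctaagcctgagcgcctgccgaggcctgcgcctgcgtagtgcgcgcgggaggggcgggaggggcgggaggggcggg
SREBF2, chr22:41832919-41833078, plus strand: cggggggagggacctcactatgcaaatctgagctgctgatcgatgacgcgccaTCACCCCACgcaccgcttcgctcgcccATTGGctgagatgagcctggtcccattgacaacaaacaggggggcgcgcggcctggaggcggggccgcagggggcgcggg
MVK, chr12:109573633-109573792, plus strand: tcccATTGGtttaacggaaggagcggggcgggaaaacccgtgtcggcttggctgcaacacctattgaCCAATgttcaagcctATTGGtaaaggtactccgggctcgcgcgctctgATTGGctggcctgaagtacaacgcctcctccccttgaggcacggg
MSMO1, chr4:165327463-165327622, plus strand: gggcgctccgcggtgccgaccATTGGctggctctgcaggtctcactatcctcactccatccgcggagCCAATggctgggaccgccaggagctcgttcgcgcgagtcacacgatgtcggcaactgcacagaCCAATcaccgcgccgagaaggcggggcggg
SREBF1, chr17:17837003-17837162, minus strand: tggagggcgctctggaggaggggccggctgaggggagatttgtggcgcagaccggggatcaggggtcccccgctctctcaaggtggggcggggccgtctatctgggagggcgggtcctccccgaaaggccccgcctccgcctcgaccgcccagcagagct

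In the LSS window the NF-Y box lies on the opposite strand to the gene, read there as ATTGG. The SREBF2 window holds its sterol element 133 to 125 bases before the start and an NF-Y box 106 to 102 bases before it. MVK had 5 NF-Y boxes in 250 bases, 4 of them in the window, and MSMO1 had 4, with 3 in the window. SREBF1, the gene of the other SREBP, had the Sp1 box and no match to the other motifs in the sequence searched. It has 23 annotated transcripts, and starts outside the promoter sequences used were not searched. The log2 fold changes, GapC9 minus GapNC, were -1.02 for LSS, -0.39 for SREBF2, -0.25 for MVK, 0.22 for MSMO1 and -0.56 for SREBF1. Of these only LSS passed the adjusted p, and whether any motif goes with the change was not tested.

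The expression levels spanned a wide range before any comparison. SCD, which puts the double bond into stearate and palmitate, was the highest at a mean of 250.7 FPKM over the 6 libraries. FASN, the fatty acid synthase, followed at 216 FPKM, and ACLY, which makes cytosolic acetyl-CoA from citrate, at 80.1 FPKM. FASN and SCD together made up 55.6% to 57.1% of the summed FPKM of the 28 genes in each library. The sterol enzymes were lower, from 25.96 FPKM for DHCR7 and 25.8 FPKM for FDPS down to 2.09 FPKM for MVK and 1.33 FPKM for HSD17B7. All 28 passed the filter of a mean of 0.1 FPKM and were tested. Of them 4 shared a row with a neighbor, CYP51A1 with LRRD1, TM7SF2 with VPS51, EBP with PORCN and SREBF2 with CCDC134, and their values include that neighbor. Exons on the other strand overlap LSS and ACAT2, and also HMGCS1, MVK, IDI1, FDPS, FDFT1, CYP51A1, SREBF1, SREBF2, STARD4 and ACLY, and reads from them are uncertain where strand was not used. Pseudogenes that carry the gene name are annotated for FDPS, CYP51A1, HSD17B7 and SCD.

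**Figure D1:**
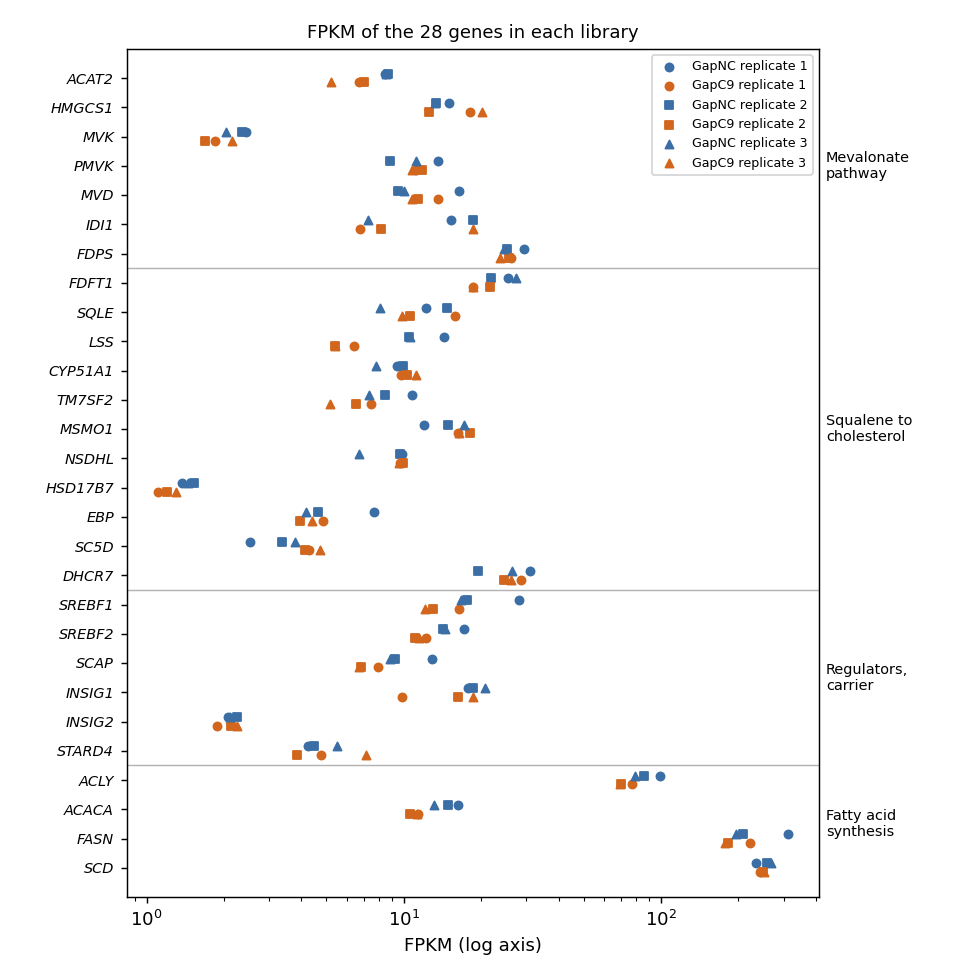
FPKM of each of the 28 genes in each of the 6 libraries, on a log axis, with GapNC in blue and GapC9 in orange and a symbol for each replicate number. FASN and SCD lie between 177 and 311 FPKM, HSD17B7 between 1.11 and 1.54 FPKM, and the blue and orange points of LSS are separate.

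In limma 6.99% of the 16028 genes and loci tested passed an adjusted p of 0.05, 1.89% higher and 5.1% lower in GapC9. Of the 28 genes 1 (3.57%) passed, and it was lower. With each library scaled to its median the split over all genes was 362 higher and 511 lower, in place of 303 and 817. By the thresholds of the study, a ratio of at least 2 or at most 0.5 with an unadjusted p under 0.05, the background was 6.42% (2.1% higher, 4.32% lower) and the count was again 1 of 28, lower. At an unadjusted p under 0.05 alone there were 7 lower and 1 higher of the 28, beside a background of 25.9%, with 16.8% lower and 9.09% higher. The 7 became 5 without GapNC replicate 1 and with median scaling, and 4 without GapC9 replicate 2 or GapC9 replicate 3. It became 8 without GapNC replicate 3, and 9 with the replicate number as a block, where none passed the adjusted p. With median scaling the split over all genes at that threshold was 2070 higher and 2097 lower, in place of 1457 and 2700. The groups did not overlap for 9 genes that were lower (32.1%) and 1 that was higher, against 21.6% and 12.6% of all genes tested (34.2% in all). Over both directions the shares of the 28 genes were 28.6% by the unadjusted p and 35.7% by overlap, near the background, and are no result about these genes as a group.

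The median log2 fold change, GapC9 minus GapNC on log2(FPKM + 0.1), was -0.26 for the 28 genes and -0.08 for all genes tested. Without GapNC replicate 1 the medians were -0.08 and -0.06. After a correction for GC content they were -0.04 and 0.02. The gap between the medians was therefore smaller when that library was left out or the GC trend was subtracted. By group, the median was -0.07 for the mevalonate enzymes, 0.06 for the enzymes from squalene to cholesterol, -0.39 for the regulators and carrier, and -0.28 for fatty acid synthesis. The last became -0.14 without GapNC replicate 1 and -0.06 with the GC correction, and that of the regulators and carrier -0.31 and -0.19. For the mevalonate enzymes these were 0.01 and 0.10, and from squalene to cholesterol 0.08 and -0.04, the first reversed in both and the second with the GC correction.

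**Figure D2:**
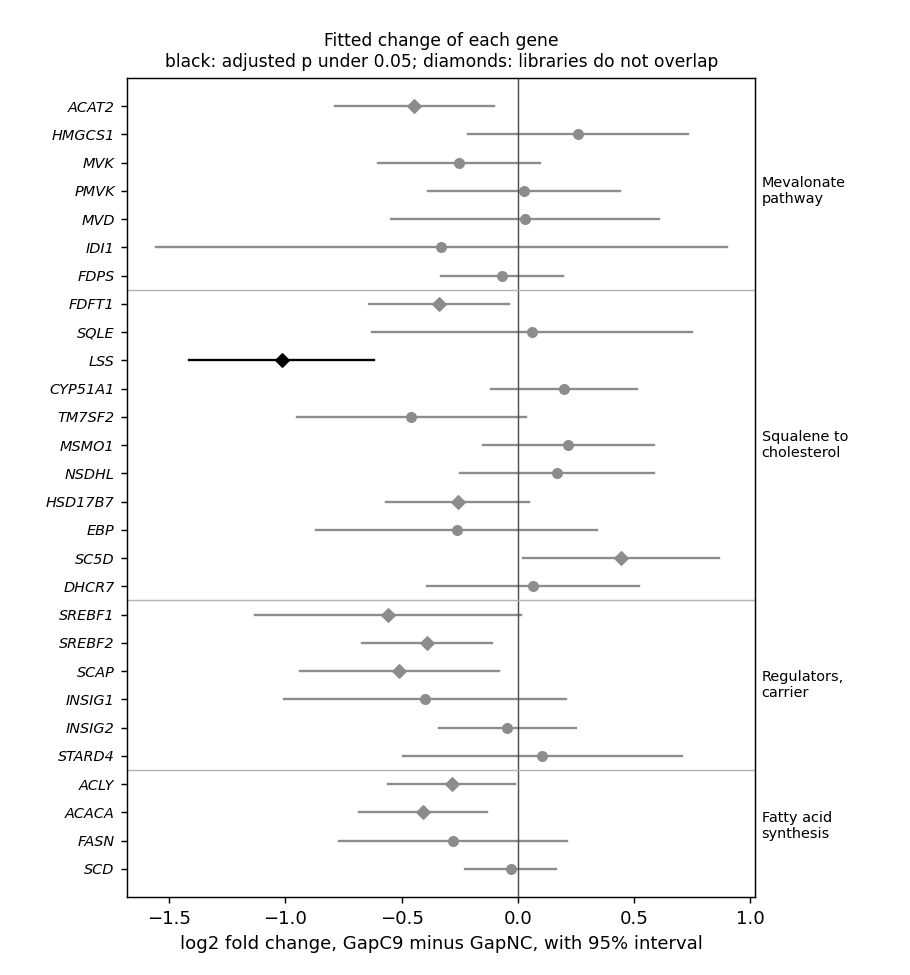
Log2 fold change of each gene, GapC9 minus GapNC on log2(FPKM + 0.1), with its 95% interval from limma, 3 libraries a group. LSS, in black, passed an adjusted p of 0.05, diamonds mark the 10 genes whose groups did not overlap, and most other intervals cross or come near 0.

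LSS closes squalene epoxide into lanosterol, the first sterol of the pathway. It was listed at 14.4, 10.5 and 10.6 FPKM in GapNC and at 6.43, 5.43 and 5.39 FPKM in GapC9. Each GapC9 value was below each GapNC value, and the replicates of a group were close apart from the higher GapNC replicate 1. The means were 11.8 ± 2.22 and 5.75 ± 0.588 FPKM (SD, n = 3), a ratio of 0.486. The log2 fold change was -1.02 (SE 0.16, 95% interval -1.41 to -0.62, adjusted p 0.0298 in limma). Without GapNC replicate 1 it was -0.87 (adjusted p 0.0324), and with the GC correction -0.76 (adjusted p 0.00485). Leaving out any of the other 5 libraries gave an adjusted p between 0.0690 and 0.117 in limma, with log2 fold changes of -1.10 to -0.97. The gene lies at chr21:46188141-46228824 on the minus strand (GRCh38, GENCODE 29), where exons of AP001468.1 and AP001469.1 overlap it on the other strand. Whether reads of the strands were told apart is not known.

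The mevalonate enzymes come first in the sterol pathway, and none of the 7 passed. ACAT2, the cytosolic thiolase that joins acetyl-CoA units, was listed at 8.43, 8.68 and 8.54 FPKM in GapNC and at 6.69, 7.03 and 5.19 FPKM in GapC9. Its groups did not overlap, and the control replicates were nearly equal. The log2 fold change was -0.45 (SE 0.14, adjusted p 0.115 in limma), and it was -0.46 without GapNC replicate 1. Exons of TCP1, SOD2 and SOD2-OT1 overlap ACAT2 on the other strand.

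HMGCS1, the synthase of HMG-CoA and a classic target of SREBP-2, was listed at 14.98, 13.4 and 13.2 FPKM in GapNC and at 18.1, 12.5 and 20.1 FPKM in GapC9. The treated replicates were spread on both sides of the control values (log2 fold change 0.26, adjusted p 0.447). MVK, the mevalonate kinase, ran from 2.03 to 2.45 FPKM in GapNC and from 1.69 to 2.14 FPKM in GapC9. PMVK, which adds the next phosphate, ran from 8.86 to 13.5 FPKM and from 10.8 to 11.8 FPKM. Neither kinase had groups that were separate.

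MVD, the decarboxylase that makes isopentenyl diphosphate, was at 16.4 FPKM in GapNC replicate 1 and at 9.46 and 10.0 FPKM in the others, with 13.6, 11.4 and 10.7 FPKM in GapC9. Its log2 fold change was 0.03 with all libraries, 0.28 without GapNC replicate 1 and 0.39 with the GC correction. The adjusted p-values were 0.952, 0.269 and 0.0513 in limma. FDPS, the farnesyl diphosphate synthase, was at 24.6 to 29.4 FPKM in GapNC and 23.6 to 26.1 FPKM in GapC9, the steadiest of the group (log2 fold change -0.07, 95% interval -0.33 to 0.20). In the annotation 8 pseudogenes carry its name, and reads it shares with them are uncertain.

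IDI1, which isomerizes isopentenyl diphosphate, was the least repeatable of the 28 genes. It was listed at 15.3, 18.6 and 7.23 FPKM in GapNC and at 6.77, 8.14 and 18.7 FPKM in GapC9. In each group the highest library was over 2 times the lowest, 2.57 times in GapNC and 2.76 times in GapC9, and the values fell into a high and a low set that cut across the labels. The 95% interval of its log2 fold change, -1.56 to 0.90, spans changes in either direction.

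From squalene on, LSS was the enzyme that passed and 3 of 11 had groups that were separate and lower, as did 21.6% of all genes tested. FDFT1, which joins farnesyl diphosphate into squalene, was at 25.4, 21.9 and 27.3 FPKM in GapNC and at 18.5, 21.6 and 18.7 FPKM in GapC9. The lowest control and the highest treated library nearly met (log2 fold change -0.34, SE 0.12, adjusted p 0.157 in limma). HSD17B7, a 3-ketosteroid reductase of the later steps, was at 1.38, 1.54 and 1.45 FPKM and at 1.11, 1.20 and 1.296 FPKM, with a log2 fold change of -0.26 and an adjusted p of 0.253. SQLE, the epoxidase that acts between FDFT1 and LSS, ran from 8.05 to 14.7 FPKM in GapNC and from 9.86 to 15.8 FPKM in GapC9. Its neighbors in the pathway had lower values in GapC9, while its own log2 fold change was 0.06 (95% interval -0.63 to 0.75).

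SC5D, the lathosterol desaturase, was the gene that stood highest in GapC9 relative to control. It was listed at 2.53, 3.37 and 3.78 FPKM in GapNC and at 4.27, 4.14 and 4.72 FPKM in GapC9. Every treated value was above every control value, and GapNC replicate 1 was the lowest library. The log2 fold change was 0.44 (SE 0.17, adjusted p 0.176), and 0.28 without GapNC replicate 1 (adjusted p 0.213 in limma).

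The other 6 enzymes of the squalene to cholesterol segment overlapped between groups. CYP51A1, the demethylase that acts on lanosterol, ran from 7.83 to 9.96 FPKM in GapNC and from 9.78 to 11.2 FPKM in GapC9. MSMO1, the methylsterol oxidase, reached 14.8 and 17.1 FPKM in 2 GapNC libraries, was lower in replicate 1, and was at 16.2, 18.1 and 16.3 FPKM in GapC9. NSDHL, which works with it, was at 6.70 to 9.88 FPKM and 9.55 to 9.94 FPKM. The log2 fold changes of these enzymes of sterol demethylation were 0.20, 0.22 and 0.17, with adjusted p-values of 0.380, 0.413 and 0.572 in limma.

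TM7SF2, a sterol reductase, was at 10.7, 8.42 and 7.31 FPKM in GapNC and at 7.47, 6.53 and 5.16 FPKM in GapC9 (log2 fold change -0.46, adjusted p 0.215). With the GC correction its log2 fold change was -0.10. EBP, the sterol isomerase, was at 7.69 FPKM in GapNC replicate 1 and between 3.95 and 4.87 FPKM in the other 5 libraries, and its log2 fold change went from -0.26 to 0.001 without that replicate. DHCR7, which makes cholesterol from its last precursor, was at 31.0, 19.4 and 26.3 FPKM and at 28.5, 24.5 and 26.05 FPKM, with a log2 fold change of 0.07 (adjusted p 0.855).

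Among the 6 regulators and carrier genes, 3 had separate groups, all lower in GapC9, and none passed. Over all genes tested 21.6% were separate and lower. SREBF1, whose SREBP-1 products mainly drive fatty acid genes, was listed at 28.01, 17.6 and 16.7 FPKM in GapNC and at 16.3, 12.9 and 12.1 FPKM in GapC9. The treated replicate 1 came close to the lowest control. The log2 fold change was -0.56 (SE 0.23, adjusted p 0.198), -0.32 without GapNC replicate 1 and -0.21 with the GC correction.

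SREBF2, whose product mainly drives sterol genes, was at 17.2, 14.2 and 14.4 FPKM in GapNC and at 12.2, 11.1 and 11.5 FPKM in GapC9. The replicates of each group lay close together and apart from the other group (log2 fold change -0.39, SE 0.11, adjusted p 0.0995 in limma). SCAP, the escort that carries SREBPs to the Golgi, was at 12.9, 9.26 and 8.86 FPKM and at 7.93, 6.84 and 6.70 FPKM. It too was separate, with a log2 fold change of -0.51 (SE 0.17, adjusted p 0.139), and -0.34 without GapNC replicate 1. With the GC correction the values were -0.18 for SREBF2 and -0.28 for SCAP.

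INSIG1, the retention protein that is itself a sensitive SREBP target, was listed at 17.8, 18.6 and 20.7 FPKM in GapNC and at 9.81, 16.3 and 18.6 FPKM in GapC9. A low value in GapC9 replicate 1 set the mean apart, and the other treated libraries came close to the controls. Its log2 fold change of -0.40 (adjusted p 0.363) became -0.13 without GapC9 replicate 1. INSIG2, its less sterol-responsive relative, was level at 2.08 to 2.25 FPKM and 1.88 to 2.24 FPKM. STARD4, a soluble sterol carrier, ran from 4.26 to 5.48 FPKM in GapNC and from 3.83 to 7.12 FPKM in GapC9, the widest treated spread of this group after INSIG1.

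**Figure D3:**
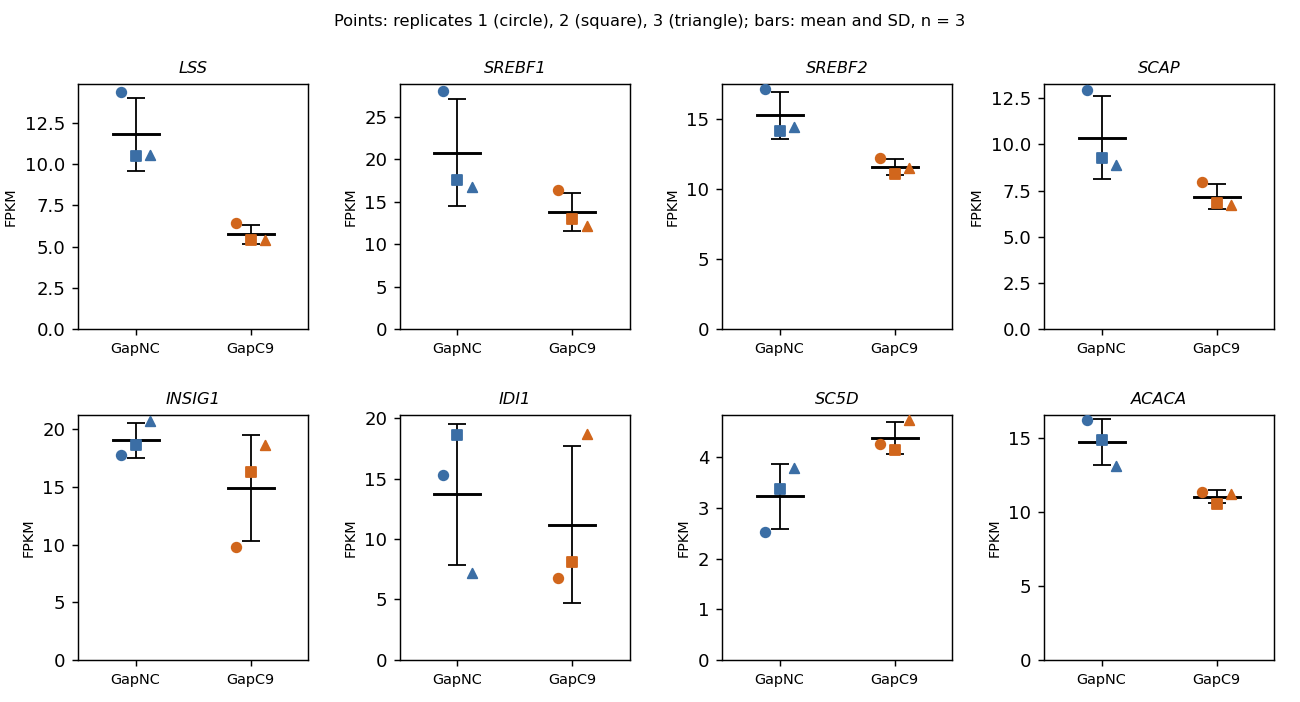
FPKM of 8 of the 28 genes in each library, points for replicates and bars for mean and SD (n = 3). LSS, SREBF1, SREBF2, SCAP and ACACA have lower GapC9 points with no overlap, SC5D has higher ones, and INSIG1 and IDI1 overlap, with IDI1 split into high and low libraries in both groups.

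All 4 genes of fatty acid synthesis had negative log2 fold changes and none passed. ACLY was listed at 99.2, 86.0 and 79.1 FPKM in GapNC and at 77.0, 69.6 and 69.6 FPKM in GapC9. Its groups were separate by a narrow gap (log2 fold change -0.28, SE 0.11, adjusted p 0.180), and the value was -0.20 without GapNC replicate 1 and -0.12 with the GC correction. ACACA, the acetyl-CoA carboxylase that makes malonyl-CoA, was at 16.2, 14.9 and 13.1 FPKM and at 11.4, 10.6 and 11.2 FPKM. The treated replicates were tightly grouped below the lowest control (log2 fold change -0.41, SE 0.11, adjusted p 0.0873 in limma), and the value was -0.34 without GapNC replicate 1 and -0.35 with the GC correction.

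FASN was at 311, 209 and 195 FPKM in GapNC and at 222, 182 and 177 FPKM in GapC9. GapNC replicate 1 stood far above the rest, and GapC9 replicate 1 exceeded both other controls. The log2 fold change of -0.28 (adjusted p 0.435) was -0.07 without GapNC replicate 1 and 0.14 with the GC correction, where its sign was reversed. SCD was at 235, 259 and 267 FPKM and at 242, 249 and 252 FPKM, the narrowest interval of all 28 genes around a log2 fold change of -0.03 (95% interval -0.23 to 0.16).

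The GC pattern of GapNC replicate 1 was at least as plain within the 28 genes as over the table. Across them the log2 deviation of that library had a Spearman rho of 0.823 with GC content, against -0.616 to 0.0208 in the others. GapC9 replicates 2 and 3 again ran the other way (-0.343 and -0.616). GC content ran from 38.1% for SC5D to 65.8% for FASN, and 14 of the 28 genes had their highest value in GapNC replicate 1. SC5D and MSMO1, the genes lowest in GC, had log2 deviations of -0.54 and -0.38 in that library, and LSS and SREBF1 of 0.80 and 0.75. The fold change itself had a rho of -0.511 with GC content over the 28 genes, which became -0.279 without that library. These are correlations across genes, which share libraries and are not independent, and the part of GC content in the single fold changes was not tested beyond the correction.

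Setting the fits side by side shows which genes depended on that library or on the GC trend. LSS remained the lowest of the 28 genes with all libraries, without GapNC replicate 1 and with the GC correction. In both alternatives 8 genes moved by less than 0.1 on the log2 scale, namely ACAT2, HMGCS1, FDFT1, CYP51A1, HSD17B7, INSIG1, ACACA and SCD. SREBF1, FASN, EBP and MVD moved by over 0.2 in both. Over all 15 alternatives to the fit, 16 of the 28 genes kept their sign and 12 did not. The 16 include LSS, SREBF1, SREBF2, SCAP, ACACA, ACLY and SC5D, but also IDI1 and INSIG1, whose replicates varied widely. The filters, the fit without variance trend and the replicate block leave each fold change as it was, so no sign could change there. A kept sign is therefore no measure of how repeatable a gene was.

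**Figure D4:**
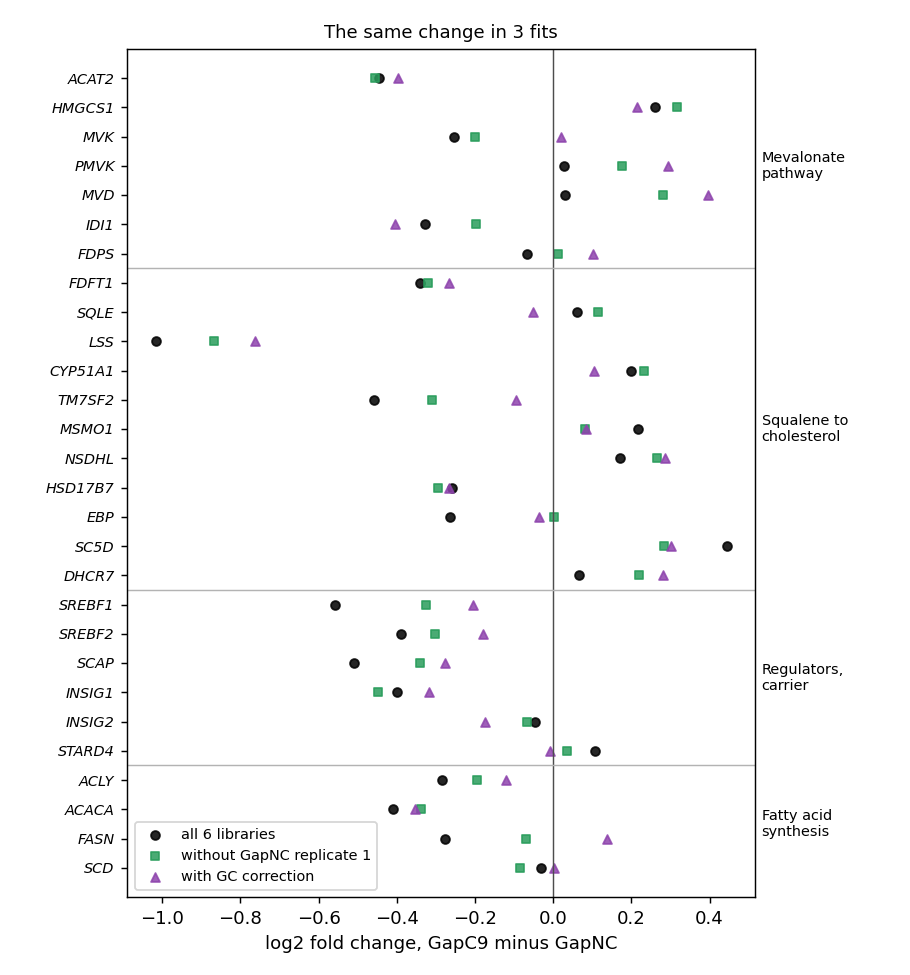
Log2 fold change of each gene, GapC9 minus GapNC, in 3 fits: all 6 libraries (circles), without GapNC replicate 1 (squares) and with GC correction (triangles). LSS stays at the far left in each (-1.02, -0.87 and -0.76), while FASN, EBP, MVD and TM7SF2 move to the right.

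Together the 28 genes summed to 980.2, 841 and 819.8 FPKM in GapNC and to 812, 759 and 772 FPKM in GapC9. As a share of all FPKM this was 0.588%, 0.531% and 0.537% against 0.509%, 0.493% and 0.499%. The groups were separate in both measures, and GapNC replicate 1 was the highest library. FASN, SCD and ACLY made up 64.6% to 66.6% of these sums, so they mostly show those genes.

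A further 54 genes around these pathways were listed as neighbors, in fatty acid elongation, acetyl-CoA and NADPH supply, control of acetyl-CoA carboxylase, isoprenoid branches, SREBP processing and sterol transport. Of these 53 had a row and 51 were tested, with 1 lower and 0 higher past the adjusted p in limma, 8 lower and 4 higher at an unadjusted p under 0.05, and a median log2 fold change of -0.06. The background was 5.1% lower and 1.89% higher by the adjusted p, and 16.8% and 9.09% by the unadjusted p. The gene that passed was PRKAA1, a catalytic subunit of AMP-activated kinase, which inhibits acetyl-CoA carboxylase by phosphorylation. It ran from 8.01 to 14.2 FPKM in GapNC and was at 4.12, 4.66 and 5.75 FPKM in GapC9. The groups were separate, and GapNC replicate 1 was here the lowest control, the opposite of LSS. The log2 fold change was -1.19 (SE 0.24, adjusted p 0.0454). Leaving out each library in turn gave adjusted p-values of 0.0311 to 0.144, under 0.05 only without GapNC replicate 1, and median scaling gave 0.0665 in limma. With the GC correction the log2 fold change was -1.29 (adjusted p 0.0104 in limma). The other listed subunits of the kinase, named after their values were seen, had positive log2 fold changes. These were 0.44 for PRKAA2, 0.50 for PRKAB1 and 0.19 for PRKAG1, with adjusted p-values of 0.193, 0.233 and 0.434 in limma. By the ratio and unadjusted p, 2 of the 51 were lower, PRKAA1 and RNF139, beside 4.32% of all genes tested. RNF139, a gene named after its values were seen, did not pass the adjusted p (0.157 in limma). It was at 0.145, 16.3 and 18.5 FPKM in GapNC and at 0.00286, 0.0775 and 0.145 FPKM in GapC9. Its groups overlap, since GapNC replicate 1 stood with the treated libraries.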

How the data were processed

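Poly(A) RNA from 6 HCT-116 libraries was sequenced with paired ends. The authors used HISAT for mapping and StringTie for quantification, and deposited FPKM values in a table of 27918 genes and loci whose assembly can join neighboring genes. The submitters' processing notes name HISAT2 2.0, StringTie 1.3.0 and Bowtie 0.12.2 and a mouse genome build, although the table carries human identifiers. The human build and the use of strand are not given in the sources used here. No counts were at hand, so the study's edgeR test was not run, and counting error is unknown.

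FPKM values were used as deposited, with each library's group taken from the labels. In R 4.3.3, limma 3.58.1 (lmFit, eBayes with trend) was fitted to log2(FPKM + 0.1), with 16028 rows averaging 0.1 FPKM or more, all 6 libraries in one fit, with two-sided tests and Benjamini-Hochberg adjustment over all of them. The fold changes on this scale understate those of low genes. The fit was tested on simulated data with independent noise and no GC trend, so that test does not cover the library differences described above. Python 3.11.15 was used for annotation (GENCODE 29, GRCh38), promoters and figures. GC content was available for 99.3% of the genes tested. In the GC correction, added after seeing the data, a lowess of each library's deviation against GC content (span 0.3) was subtracted.

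The alternatives were pseudocounts of 1 and 0.01, a filter at 1 FPKM and no filter, median scaling, no variance trend, a replicate block, leaving out each library, and the GC correction with and without GapNC replicate 1. Every one of the 28 genes is named, other lipid genes only past the adjusted p unless said otherwise. The members, lists and tests were chosen with earlier results of these data known.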

Additional observations from a re-analysis of the deposited data

How the results depend on the processing

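Beside the 1120 genes past the adjusted p in limma, no filter gave 492, the GC correction 2331 and leaving out a library 34 to 814, the last without GapNC replicate 1. With the replicate block it gave 0, where 4570 had an unadjusted p under 0.05 (main 4157), and 0 of the 28 genes, with LSS at an adjusted p of 0.0608. Same-numbered libraries deviated together with r of 0.0970, 0.0398 and 0.0243, so the numbers were not taken to pair them. The 1 gene past the adjusted p, LSS, was 0 to 1 gene when a library was left out, and by the ratio it was 0 with median scaling, 0 with the GC correction with or without GapNC replicate 1, and 0 to 1 without a library (0 without GapNC replicate 1, GapC9 replicate 2 or GapC9 replicate 3). With the GC correction and no GapNC replicate 1, 1 gene was higher, MVD at 0.48 (adjusted p 0.0361). The median log2 fold change was -0.17 with pseudocount 1, -0.16 with median scaling, -0.044 and -0.051 with the GC correction with and without GapNC replicate 1, and -0.27 to -0.078 without a library. Signs were reversed with median scaling for FDPS (0.034), INSIG2 (0.050) and SCD (0.069). With the GC correction they were reversed for MVK (0.020), FDPS (0.10), SQLE (-0.052), STARD4 (-0.0078), FASN (0.14) and SCD (0.0011), and without GapNC replicate 1 as well for FDPS (0.10), EBP (0.11) and FASN (0.16). Leaving out a library in turn spanned 0 for PMVK (-0.13 to 0.18), MVD (-0.11 to 0.28), FDPS (-0.12 to 0.012), SQLE (-0.18 to 0.25), NSDHL (-0.010 to 0.27), EBP (-0.43 to 0.0011), DHCR7 (-0.12 to 0.22), INSIG2 (-0.098 to 0.023), STARD4 (-0.13 to 0.30) and SCD (-0.086 to 0.0063). For these signs the cause was not tested, and all had adjusted p-values above 0.05 in limma. The other 16 genes kept their sign in all 15 alternatives, some of which, such as the filters and the replicate block, could not change a sign. With 3 libraries a group and no counts, small differences of genes such as MVK or HSD17B7 cannot be resolved from the spread.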
